A study of Mus musculus with 12 samples.

Results

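The interleukin-1 (IL-1) family examined here comprises 10 genes: the ligands Il1a, Il1b, Il18, Il33 and Il36g, the receptor antagonist Il1rn, and the receptor chains Il1r1, Il1r2, Il1rap and Il1rl1. They were taken by symbol from a table of 19910 genes. 9 were listed under these symbols and Il36g under its older symbol Il1f9. All 10 passed the filter on low counts, which left 10993 genes. The table held RNA of bone marrow cells from female C57BL/6J mice, 6 to 10 weeks old, that had been transduced with retroviruses. There were 3 libraries in each of 4 groups. The empty-vector group received a pair of empty vectors, the SETBP1 group received mutant SETBP1 (D868N) with an empty vector, the NRAS group received mutant NRAS (G12D) with an empty vector, and the SETBP1+NRAS group received both mutants. All groups were therefore exposed to virus, made in the 293T17 packaging cell line, and all are described as leukemia cells from mouse bone marrow. The labels number the replicates without giving the mouse, transduction or culture behind each, so p-values measure only the spread between these libraries, which may be technical.

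IL-1 alpha and IL-1 beta bind the receptor IL1R1, which then recruits the accessory chain IL1RAP and signals through MYD88 and IRAK kinases to NF-kB. IL1RN encodes the receptor antagonist, which occupies IL1R1 without recruiting the accessory chain, and IL1R2 is a decoy that binds ligand but lacks a signalling domain. IL-33 signals through IL1RL1 (ST2) with IL1RAP, and IL-36 gamma through IL1RL2 with IL1RAP. In marrow the family is known for driving myeloid cell production during inflammation, with monocytes, macrophages and neutrophils as main sources and mast cells and basophils as main carriers of ST2.

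Total counts were 7085894 to 8864919 per library. Nras was at 82.0 to 93.0 normalised CPM in the empty-vector and SETBP1 libraries and at 1423 to 1712 in the libraries with mutant NRAS. Setbp1 had 0 counts in every empty-vector and NRAS library, 5 to 7 in the SETBP1 libraries and 11 to 17 in the SETBP1+NRAS libraries. Normalised CPM are a gene's counts scaled to the size of its library, after trimmed-mean (TMM) scaling. Among cell type markers, those of monocytes summed to 3975 to 8917 normalised CPM and early granule genes to 5848 to 27462, while the lists of T, NK and innate lymphoid cells, of B cells and of erythroid cells summed to 6.34 to 32.4, 7.93 to 21.6 and 1.48 to 11.1. In these lists the globin genes Hba-a1, Hbb-bt and Hbb-bs and the lymphoid genes Cd3e, Cd8a, Ncr1 and Pax5 had no count. Their other genes had counts, and 2, 1 and 2 genes of the 3 lists passed the filter on low counts. The sum for T, NK and innate lymphoid cells was 6.34 to 7.63 with empty vectors and 30.1 to 32.4 with both mutants. SETBP1 replicate 3 stood apart from the rest of its group. Its log2 profile correlated at 0.946 and 0.953 with the other SETBP1 libraries, against 0.984 to 0.991 for all other pairs within a group. In it, 71 genes had no count although both other SETBP1 libraries had at least 10, against 0 to 2 such genes in the other libraries. Genes with over 6 kb of exon were lower in it by a median of 0.31 on the log2 scale, and genes with up to 2 kb were higher by 0.26. Il1a, Il1b, Il18, Il1r2 and Il36g have 1031 to 1974 bases of exon, and each was highest in this library within the SETBP1 group. Il1r1 and Il1rl1, with 6363 and 6894 bases, were each lowest in it. Il1rn, with 5535 bases, was also highest in it, at 66.0 normalised CPM against 44.1 and 35.5. Il1rap, the longest member at 11360 bases, was not lowest in it, at 27.8 against 22.1 in SETBP1 replicate 2. The part of exon length in the values of these genes was not tested. Most changes tested against or within the SETBP1 group are therefore given with and without SETBP1 replicate 3. Permutation tests over libraries and the median over the members were computed with it only.

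The genes lie on 5 chromosomes (mm10, GENCODE vM21). On chromosome 2, Il1rn lies at chr2:24336853-24351494 and Il36g at chr2:24186476-24193568, both on the plus strand, while Il1a lies at chr2:129299610-129309972 and Il1b at chr2:129364570-129371139 on the minus strand. On chromosome 1, Il1r2 (chr1:40074079-40125231), Il1r1 (chr1:40225080-40317257) and Il1rl1 (chr1:40429570-40465415) lie on the plus strand in a receptor cluster. Il1rap is at chr16:26581704-26730117, Il18 at chr9:50554827-50581840 and Il33 at chr19:29925114-29960718. Exons of Il1a, Il1b and Il1rap overlap antisense genes (Gm14023, Il1bos and Gm20319). No strand rule for the counting is given in the sources used here, so reads from those partners cannot be told apart from reads of the 3 members.

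The promoters of the 4 chromosome 2 members are shown because these genes, which include both classical ligands and their antagonist, did not move together across the groups. The sequences are RefSeq's for GRCm38.p6, on the strand of the gene, and end just before the first exon. Capitals mark matches on either strand to the AP-1 motif TGANTCA, to the PU.1 motif GAGGAA and to TATAAA as the core of a TATA box.
Il1a, chr2:129309973-129310222, minus strand: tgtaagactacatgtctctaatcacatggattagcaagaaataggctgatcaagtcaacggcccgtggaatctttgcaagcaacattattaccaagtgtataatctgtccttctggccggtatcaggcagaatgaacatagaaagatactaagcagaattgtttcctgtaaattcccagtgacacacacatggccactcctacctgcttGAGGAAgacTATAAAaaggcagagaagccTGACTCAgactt
Il1b, chr2:129371140-129371389, minus strand: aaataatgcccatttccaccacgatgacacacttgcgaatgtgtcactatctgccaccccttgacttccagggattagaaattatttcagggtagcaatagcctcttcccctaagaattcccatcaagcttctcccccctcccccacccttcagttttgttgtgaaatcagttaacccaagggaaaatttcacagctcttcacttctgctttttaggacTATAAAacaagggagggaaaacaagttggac
Il1rn, chr2:24336610-24336852, plus strand: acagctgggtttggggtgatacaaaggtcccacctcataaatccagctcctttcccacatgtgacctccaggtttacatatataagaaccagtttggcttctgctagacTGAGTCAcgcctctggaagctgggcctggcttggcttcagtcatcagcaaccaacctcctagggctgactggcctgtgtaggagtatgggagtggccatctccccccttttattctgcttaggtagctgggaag
Il36g, chr2:24186226-24186475, plus strand: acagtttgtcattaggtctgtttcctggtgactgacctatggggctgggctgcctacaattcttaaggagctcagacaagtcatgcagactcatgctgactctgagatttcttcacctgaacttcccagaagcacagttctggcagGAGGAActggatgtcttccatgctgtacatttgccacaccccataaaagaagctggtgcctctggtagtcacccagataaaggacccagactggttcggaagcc

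Il1a held the TATA box at -32 to -27 from its RefSeq start, a PU.1 match at -41 to -36 and an AP-1 match at -12 to -6. Il1b held a TATA box at -31 to -26 and neither of the other motifs. Il1rn held an AP-1 match at -141 to -135 from the RefSeq start shown, and Il36g a PU.1 match at -104 to -99. RefSeq gives further Il1rn starts at chr2:24345291 and chr2:24345371, and the 250 bases before each held none of the motifs searched. Among 32817 promoter windows searched, 12.4% held TATAAA, 6.75% TGANTCA and 23.3% GAGGAA. The C/EBP motif TTGCNNAA (9.57% of windows) and the NF-kB consensus (3.9%) were not in the 4 sequences. A match is a string of letters in these windows and was not tested as a binding site.

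A gene is said to rise or fall where its change passed edgeR's quasi-likelihood F test at a Benjamini-Hochberg adjusted p under 0.05 over all tested genes. With SETBP1 against empty vectors, 3 members rose (Il1a, Il1b, Il18) and 1 fell (Il1r2), where 14.9% of all tested genes were called, 8.31% higher and 6.55% lower. With NRAS against empty, 6 rose and 1 fell (5 and 1 without Il33), where 32.5% of all genes were called (17.0% higher, 15.5% lower). With both mutants against empty, 7 rose and 2 fell (6 and 2 without Il33), beside 40.6% of all genes (20.8% higher, 19.8% lower). Il33 is set apart because it passed the filter on low counts only through the groups with mutant NRAS, where it is high, so its calls are no support for these counts. These 3 comparisons share the same control libraries.

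When SETBP1 was added to NRAS, 1 member rose (Il1a) and 1 fell (Il36g), where 1.91% of all genes were called, 0.528% higher and 1.38% lower. When NRAS was added to SETBP1, 5 rose and 1 fell (4 and 1 without Il33), beside 42.4% of all genes (20.9% higher, 21.5% lower). NRAS against SETBP1 also gave 5 higher and 1 lower (4 and 1 without Il33), beside 40.9% (20.8% higher, 20.1% lower). The interaction is the SETBP1 change with mutant NRAS minus the SETBP1 change without it. It was called for 0 members by edgeR and 0 by DESeq2, with 4 at an unadjusted p under 0.05 in edgeR; 0.0455% of all genes were called and 12.9% were under the unadjusted threshold. Without SETBP1 replicate 3, 3 members rose and 2 fell for SETBP1 against empty (15.3% of all genes called), 5 rose and 2 fell for SETBP1+NRAS against SETBP1 (46.5%), 5 rose and 1 fell for NRAS against SETBP1 (43.0%), and the interaction was called for 2 members, Il1b and Il1r2 (0.990%).

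The median log2 fold change of the 10 members was 0.91 with NRAS and 1.15 with both against empty. The median over all genes was -0.01 in each. Over the 9 members other than Il33, the median was 0.85 (the value of Il1rap) with NRAS and 0.98 (that of Il18) with both. With SETBP1 the median was 0.20 over the fitted values of all 10 members and -0.22 over the 9 other than Il33. Counts of Il33 there were at or under the floor of 3 in both groups. SETBP1+NRAS against NRAS gave -0.27, beside 0.00 over all genes.

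**Figure D1:**
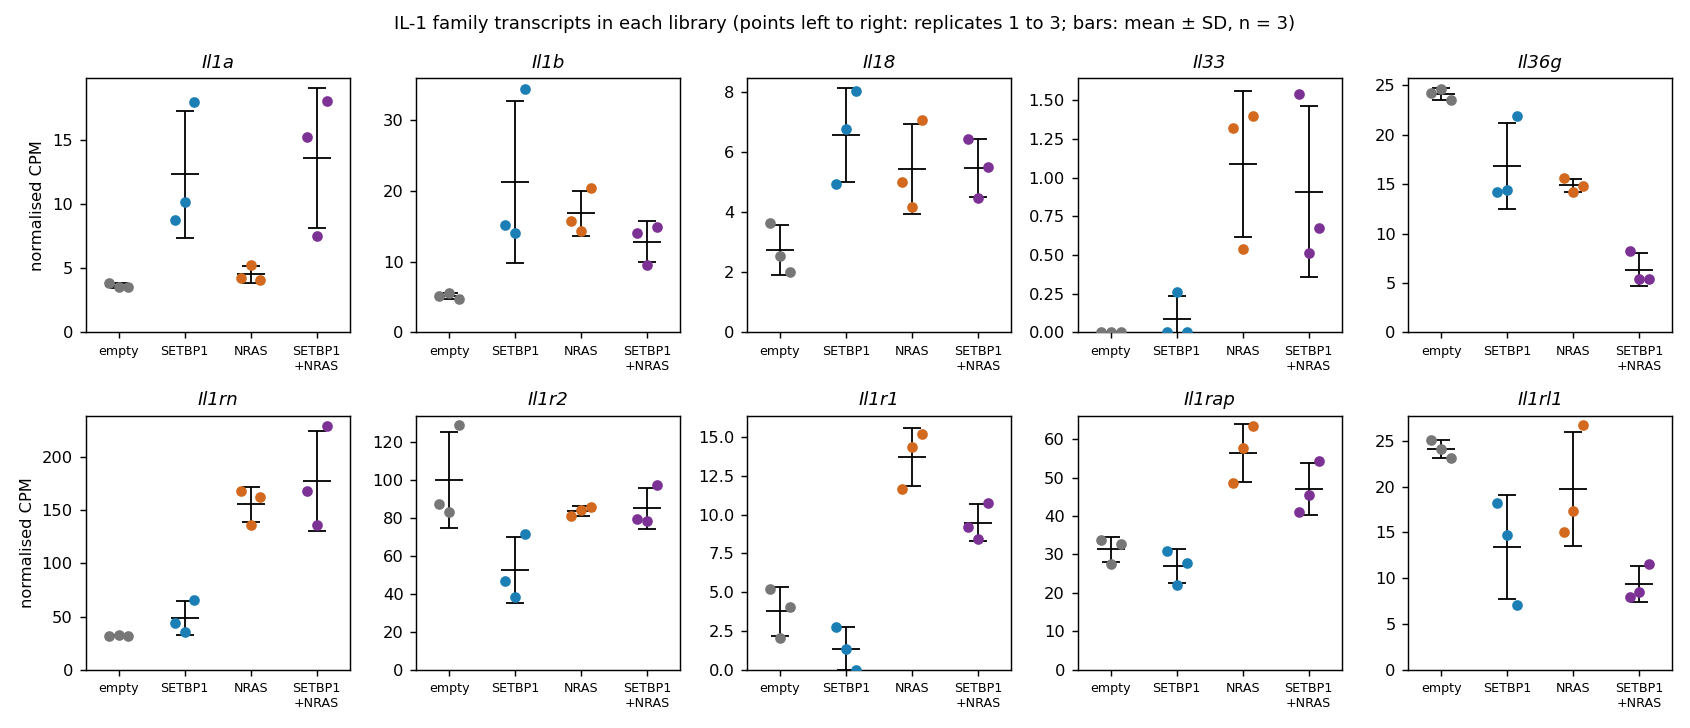
Normalised CPM of the 10 genes in each library (points, replicates 1 to 3 from left to right), by group, with the mean and SD of 3 libraries as bars. Il1a is high in both groups with mutant SETBP1, Il1rn and Il1r1 in both groups with mutant NRAS, and Il36g is lowest in the SETBP1+NRAS group at 5.38 to 8.25.

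Il1a, which encodes the ligand that is active without cleavage and is often held at the cell surface, rose with mutant SETBP1, in the absence and in the presence of mutant NRAS. In replicates 1, 2 and 3 it was at 3.87, 3.56 and 3.51 normalised CPM with empty vectors, at 8.79, 10.2 and 18.0 with SETBP1, at 4.23, 5.28 and 4.06 with NRAS, and at 15.2, 7.55 and 18.0 with both. Every library with mutant SETBP1 lay above every library without it. On the log2 scale the change was 1.75 (SE 0.34, edgeR adjusted p = 0.00750) for SETBP1 against empty and 1.59 (SE 0.34, edgeR adjusted p = 0.0280) for SETBP1+NRAS against NRAS. NRAS against empty gave 0.31 (SE 0.37, edgeR adjusted p = 0.568). Without SETBP1 replicate 3 the SETBP1 value was 1.37 (edgeR adjusted p = 0.00553). The SETBP1+NRAS against NRAS call was lost when any one of NRAS replicates 1, 2 and 3 or SETBP1+NRAS replicates 1 and 3 was left out (edgeR adjusted p up to 0.137).

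Il1b encodes the ligand that is made as an inactive precursor and cut by caspase-1. It rose against empty vectors in all 3 mutant groups, and the groups with mutants were not ordered as for Il1a. In replicates 1, 2 and 3 it was at 5.09, 5.59 and 4.72 normalised CPM with empty vectors, at 15.2, 14.1 and 34.4 with SETBP1, at 15.7, 14.3 and 20.4 with NRAS, and at 14.0, 9.60 and 14.9 with both. No mutant library overlapped the empty-vector libraries, while the mutant groups overlapped one another. The log2 fold change against empty was 2.05 (SE 0.33, edgeR adjusted p = 0.00279) for SETBP1, 1.71 (SE 0.33, edgeR adjusted p = 0.00134) for NRAS and 1.32 (SE 0.34, edgeR adjusted p = 0.00638) for both. The SETBP1 value was 1.51 (SE 0.22, edgeR adjusted p = 1.68e-04) without SETBP1 replicate 3. SETBP1+NRAS against NRAS was at -0.39 (SE 0.31, 95% interval -1.05 to 0.27, edgeR adjusted p = 0.749).

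The interaction for Il1b was -2.44 (SE 0.45) on the log2 scale and did not pass the test over all genes (edgeR adjusted p = 0.119). It passed without SETBP1 replicate 3 (-1.90, SE 0.28, edgeR adjusted p = 0.00256), without SETBP1 replicate 1 (edgeR adjusted p = 0.0314), without SETBP1 replicate 2 (edgeR adjusted p = 0.0414) and with no filter on low counts (edgeR adjusted p = 0.0297). For Il1a the interaction was -0.17 (SE 0.48, edgeR adjusted p = 0.894), and 0.21 (SE 0.41, edgeR adjusted p = 0.866) without SETBP1 replicate 3.

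Il1rn, the receptor antagonist, was 4.88-fold higher with NRAS and 5.58-fold higher with both mutants than with empty vectors. It was at 31.9, 32.4 and 31.3 normalised CPM in the empty-vector libraries, at 44.1, 35.5 and 66.0 with SETBP1, at 168, 136 and 162 with NRAS, and at 168, 136 and 229 with both. All 6 libraries with mutant NRAS lay above all 6 without it. On the log2 scale it changed by 2.29 (SE 0.21, edgeR adjusted p = 2.91e-06) for NRAS against empty and 1.87 (SE 0.21, edgeR adjusted p = 1.06e-05) for SETBP1+NRAS against SETBP1, the latter at 2.16 without SETBP1 replicate 3. SETBP1 against empty was at 0.61 (SE 0.22, edgeR adjusted p = 0.0698), and at 0.32 (edgeR adjusted p = 0.228) without SETBP1 replicate 3. All SETBP1 libraries lay above the empty-vector libraries. The change passed with DESeq2 (DESeq2 adjusted p = 0.0308) and with a replicate block (edgeR adjusted p = 0.0472). It also passed without SETBP1 replicate 1 (edgeR adjusted p = 0.0481) and without SETBP1 replicate 2 (0.0299). SETBP1+NRAS against NRAS was at 0.19 (SE 0.20, 95% interval -0.23 to 0.62).

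The balance of antagonist to ligand transcripts was computed in each library as Il1rn over the sum of Il1a and Il1b, in normalised CPM per kb of exon. These ratios were chosen after the values had been seen. The ratio was 1.24, 1.24 and 1.33 with empty vectors, 0.642, 0.511 and 0.439 with SETBP1, 2.92, 2.42 and 2.30 with NRAS, and 2.02, 2.77 and 2.44 with both. The SETBP1 libraries lay below the empty-vector libraries, and both groups with mutant NRAS lay above them. Each of these 3 differences had an exact two-sided permutation p of 0.1, the smallest that 3 libraries against 3 can give. SETBP1+NRAS and NRAS overlapped (exact permutation p = 0.7). The lowest ratio, 0.439, was in SETBP1 replicate 3, where genes with short exon length were higher, and the part of exon length in it was not tested. The ratio of Il1rn to Il1b alone was 2.00 to 2.28 with empty vectors and 0.661 to 1.00 with SETBP1. It was 2.74 to 3.68 with NRAS and 4.14 to 5.28 with both. By that ratio SETBP1+NRAS and NRAS did not overlap (exact permutation p = 0.1, the smallest possible).

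The ratio of Il1b to Il1a, also per kb, was 1.36, 1.63 and 1.39 with empty vectors, 1.79, 1.43 and 1.98 with SETBP1, 3.85, 2.81 and 5.21 with NRAS, and 0.950, 1.32 and 0.857 with both. Il1b was thus the more abundant of the 2 ligands in every NRAS library, by at least 2.81-fold, and the ratio in the SETBP1+NRAS libraries lay below that of every other library. The exact permutation p for SETBP1+NRAS against NRAS was 0.1, again the smallest possible.

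**Figure D2:**
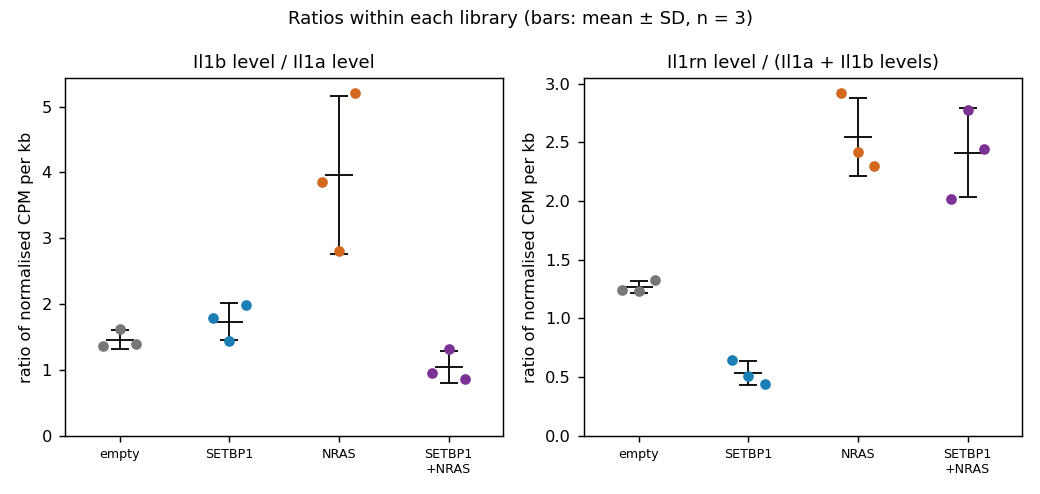
Ratio of Il1b to Il1a and of Il1rn to the sum of Il1a and Il1b in each library (points), from normalised CPM per kb of exon, with mean and SD of 3 libraries as bars. The antagonist ratio is 0.439 to 0.642 in the SETBP1 libraries and 2.02 to 2.92 in all libraries with mutant NRAS.

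Il18, a ligand that is also cut by caspase-1, was low throughout. It was at 3.65, 2.54 and 2.02 normalised CPM with empty vectors, 4.94, 6.80 and 8.05 with SETBP1, 5.02, 4.19 and 7.10 with NRAS, and 6.43, 4.48 and 5.52 with both. The empty-vector libraries lay below all 9 others, which overlapped. The log2 fold change against empty was 1.25 for SETBP1 (SE 0.31, edgeR adjusted p = 0.0193), 0.97 for NRAS (SE 0.31, edgeR adjusted p = 0.0288) and 0.98 for both (SE 0.31, edgeR adjusted p = 0.0229). The SETBP1 value was 1.07 (edgeR adjusted p = 0.0293) without SETBP1 replicate 3, and its call was lost in a fit of only the groups compared (edgeR adjusted p = 0.102). None of the 3 passed the test without empty replicate 2 or without empty replicate 3. The NRAS call was also lost without NRAS replicate 1 or 3, and the call for both mutants without SETBP1+NRAS replicate 1 or 3 (edgeR adjusted p up to 0.142 over the 3 comparisons).

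Il33, an alarmin of barrier and stromal cells, was close to the limit of detection. It had 0 counts in the 3 empty-vector libraries, 0, 2 and 0 with SETBP1, 10, 4 and 11 with NRAS, and 11, 4 and 5 with both. It passed the filter only through the groups with mutant NRAS, so its calls there follow in part from the filter. Against a floor of 3 counts over the empty-vector group, Il33 was 8.87-fold higher with NRAS and 7.24-fold higher with both. These ratios leave out the counting error of the 25 and 20 reads in the mutant groups. The edgeR adjusted p was 0.00504 for NRAS and 0.00631 for both against empty. Against SETBP1 the ratio was 13.4 for NRAS (95% interval 3.33 to 116) and 10.9 for SETBP1+NRAS (2.65 to 96.2); these intervals cover counting error only. The call against SETBP1 was lost without NRAS replicate 3 for NRAS (edgeR adjusted p = 0.0561), and without SETBP1 replicate 1 (0.0639) or SETBP1+NRAS replicate 1 (0.106) for both mutants. Both calls against SETBP1 held without SETBP1 replicate 3 (edgeR adjusted p = 0.0252 for NRAS and 0.0448 for both).

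Il36g, the IL-36 ligand, was lowest with both mutants. It was at 24.2, 24.6 and 23.5 normalised CPM with empty vectors, at 14.2, 14.4 and 21.9 with SETBP1, at 15.6, 14.2 and 14.8 with NRAS, and at 8.25, 5.38 and 5.38 with both. The SETBP1+NRAS libraries lay below all others, and the empty-vector libraries above all others. Its log2 fold change was -0.70 (SE 0.19, edgeR adjusted p = 0.0131) for NRAS against empty, -1.93 (SE 0.21, edgeR adjusted p = 6.92e-06) for both against empty, and -1.23 (SE 0.21, edgeR adjusted p = 0.00791) for SETBP1+NRAS against NRAS. The first call was lost without NRAS replicate 2 (edgeR adjusted p = 0.0518) and the last without SETBP1+NRAS replicate 2 (0.0521). SETBP1 against empty was at -0.52 (SE 0.19, edgeR adjusted p = 0.0792), and at -0.75 (edgeR adjusted p = 0.00417) without SETBP1 replicate 3. In the fit of all libraries, Il36g was the only member lower in the SETBP1+NRAS group than in both single-mutant groups by the test; without SETBP1 replicate 3, Il1rl1 was so too.

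Late neutrophil markers were, like Il36g, highest with empty vectors and lowest with both mutants. So were early granule markers (24799 to 27462 and 5848 to 6390 normalised CPM) and the mast cell and basophil markers given below. Of 7 tested early granule markers, 0 rose and 5 fell in SETBP1+NRAS against NRAS, beside 0.528% and 1.38% of all genes. The summed late neutrophil level was 11413 to 12876 normalised CPM with empty vectors, 5214 to 7469 with SETBP1, 5959 to 7625 with NRAS and 2011 to 2518 with both. Of 12 tested late neutrophil markers, 10 fell with both mutants against empty, where 19.8% of all genes were lower. In SETBP1+NRAS against NRAS 0 rose and 10 fell, beside 0.528% and 1.38%. For SETBP1 against empty 0 rose and 10 fell (11 without SETBP1 replicate 3), beside 8.31% and 6.55%. For NRAS against empty 2 rose and 7 fell, beside 17.0% and 15.5%. For NRAS against SETBP1 5 rose and 4 fell, also without SETBP1 replicate 3, beside 20.8% and 20.1% in the fit of all libraries. None of the 12 was at 0 throughout. In bulk RNA, fewer cells of a type and less RNA per cell cannot be told apart, and the part of the marker change in the Il36g values was not tested. Monocyte and macrophage markers were summed at 5460 to 6020, 6241 to 8917, 3975 to 4390 and 4020 to 4232 in the same order of groups; for SETBP1 against empty 7 of 15 rose and 1 fell, beside 8.31% of all genes higher and 6.55% lower (7 and 2 without SETBP1 replicate 3), and for NRAS against empty 1 rose and 10 fell, beside 17.0% and 15.5%. These values stand beside the rises of Il1b, and their part in those rises was not tested.

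**Figure D3:**
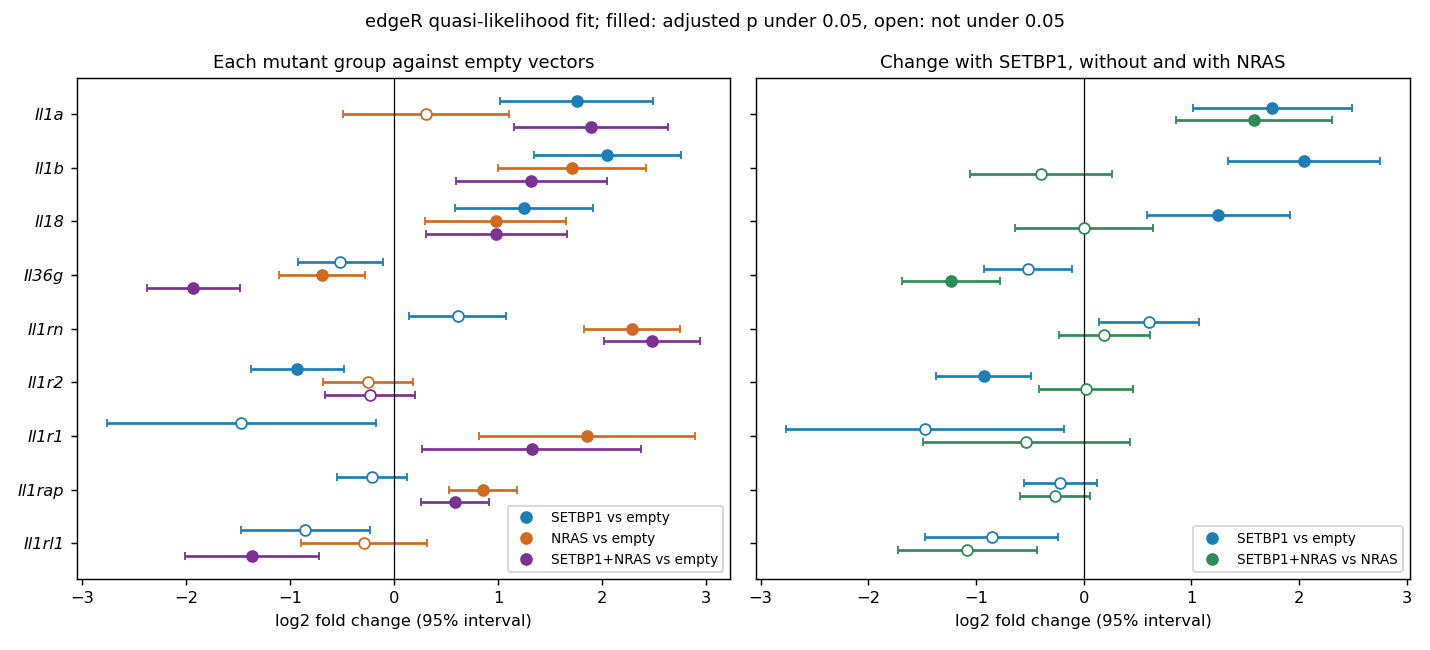
Log2 fold changes (points) with 95% intervals from the edgeR fit for 9 of the genes (Il33 is left out because it has no count in the empty-vector group), for each mutant group against empty vectors at left and for SETBP1 without and with mutant NRAS at right. Filled points have an adjusted p under 0.05; the Il1b change with SETBP1 is 2.05 without mutant NRAS and -0.39 with it.

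Among the receptors, the decoy Il1r2 was far above the signalling receptor Il1r1 in every group. Per kb of exon, Il1r2 averaged 52.3 normalised CPM with empty vectors, 27.4 with SETBP1, 43.9 with NRAS and 44.5 with both, and Il1r1 averaged 0.591, 0.214, 2.16 and 1.49. The share of Il1r2 in the sum of both was 98.2 to 99.3% with empty vectors, 98.3 to 100% with SETBP1, 95.0 to 95.9% with NRAS and 96.6 to 96.9% with both. Each group with mutant NRAS lay below each group without it (exact permutation p = 0.1 for each pair, the smallest possible). SETBP1 and empty overlapped (exact permutation p = 0.9).

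Il1r2 fell with SETBP1 alone. It was at 87.4, 83.2 and 129 normalised CPM with empty vectors, at 47.0, 38.2 and 71.7 with SETBP1, at 80.9, 84.3 and 85.9 with NRAS, and at 79.3, 78.2 and 97.3 with both. The SETBP1 libraries lay below all others. SETBP1 against empty gave a log2 fold change of -0.93 (SE 0.21, edgeR adjusted p = 0.0125) and SETBP1+NRAS against NRAS 0.02 (SE 0.20, 95% interval -0.42 to 0.46, edgeR adjusted p = 0.989). That SETBP1 value was -1.22 (edgeR adjusted p = 5.11e-05) without SETBP1 replicate 3. The SETBP1 call was lost without empty replicate 3 (-0.70, edgeR adjusted p = 0.0720) and in a fit of only the groups compared (edgeR adjusted p = 0.0989). The interaction was 0.95 (SE 0.29, edgeR adjusted p = 0.259), and 1.25 (SE 0.21, edgeR adjusted p = 0.00519) without SETBP1 replicate 3.

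Il1r1 rose with mutant NRAS. Its counts were 47, 16 and 30 with empty vectors, 23, 10 and 0 with SETBP1, 88, 106 and 120 with NRAS, and 66, 66 and 80 with both. All 6 libraries with mutant NRAS lay above all 6 without it, and SETBP1 replicate 3 had no count. NRAS against empty gave a log2 fold change of 1.85 (SE 0.48, edgeR adjusted p = 0.00929) and SETBP1+NRAS against SETBP1 gave 2.79 (SE 0.56, edgeR adjusted p = 0.00138), the latter at 2.19 (edgeR adjusted p = 4.01e-05) without SETBP1 replicate 3. SETBP1+NRAS against empty was at 1.32 (SE 0.49, edgeR adjusted p = 0.0451) and was lost in 12 of 18 alternatives, including when any one empty-vector, NRAS or SETBP1+NRAS library was left out (edgeR adjusted p up to 0.164). SETBP1 against empty was at -1.47 (SE 0.60, edgeR adjusted p = 0.107), and at -0.88 (edgeR adjusted p = 0.133) without SETBP1 replicate 3. That change passed with DESeq2 (DESeq2 adjusted p = 0.0422) and without SETBP1 replicate 1 (-2.56, edgeR adjusted p = 0.0137). Il1r1 is one of the long transcripts, with 6363 bases of exon.

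Il1rap, the accessory chain shared by the IL-1, IL-33 and IL-36 receptors, also rose with mutant NRAS. It was at 33.7, 27.6 and 32.7 normalised CPM with empty vectors, at 31.0, 22.1 and 27.8 with SETBP1, at 48.5, 57.6 and 63.4 with NRAS, and at 41.1, 45.4 and 54.4 with both. The groups with and without mutant NRAS did not overlap. The change in log2 was 0.85 (SE 0.15, edgeR adjusted p = 7.75e-04) for NRAS against empty and 0.80 (SE 0.15, edgeR adjusted p = 0.00102) for SETBP1+NRAS against SETBP1. SETBP1 gave -0.22 (SE 0.16, 95% interval -0.55 to 0.12) against empty and -0.27 (SE 0.15, 95% interval -0.59 to 0.06) in the presence of NRAS. SETBP1+NRAS against SETBP1 was at 0.82 (edgeR adjusted p = 2.83e-04) and SETBP1 against empty at -0.24 without SETBP1 replicate 3.

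Il1rl1, the IL-33 receptor ST2, fell with both mutants. It was at 25.1, 24.1 and 23.1 normalised CPM with empty vectors, at 18.2, 14.8 and 7.10 with SETBP1, at 15.1, 17.3 and 26.7 with NRAS, and at 7.97, 8.45 and 11.6 with both. The SETBP1+NRAS and SETBP1 libraries lay below the empty-vector libraries, and NRAS replicate 3 lay above them. The log2 fold change was -1.37 for both against empty (SE 0.30, edgeR adjusted p = 0.00224). SETBP1+NRAS against NRAS was at -1.08 (SE 0.30, edgeR adjusted p = 0.0967), and passed the test at -1.08 without SETBP1 replicate 3 (edgeR adjusted p = 0.00151). SETBP1 against empty was at -0.85 (SE 0.29, edgeR adjusted p = 0.0599), and at -0.55 (edgeR adjusted p = 0.0756) without SETBP1 replicate 3; Il1rl1 has 6894 bases of exon.

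Markers of mast cells and basophils, which carry ST2, moved with Il1rl1 in part. Their summed level was 3215 to 3287 normalised CPM with empty vectors, 1738 to 2482 with SETBP1, 759 to 1269 with NRAS and 422 to 610 with both. Of 10 tested markers, 6 fell with SETBP1 (8 without SETBP1 replicate 3), 9 with NRAS and 8 with both against empty, where 6.55%, 15.5% and 19.8% of all genes were lower. They were led in abundance by the basophil proteases Prss34 (log2 fold change -4.22, SE 0.26, edgeR adjusted p = 2.58e-08, both against empty) and Mcpt8 (-2.81, SE 0.19, 7.19e-08). None of the 12 markers was at 0 throughout. The NRAS libraries, whose marker sums were below those of every SETBP1 and empty-vector library, overlapped the empty-vector libraries in Il1rl1; the part of the markers in the Il1rl1 values was not tested.

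**Figure D4:**
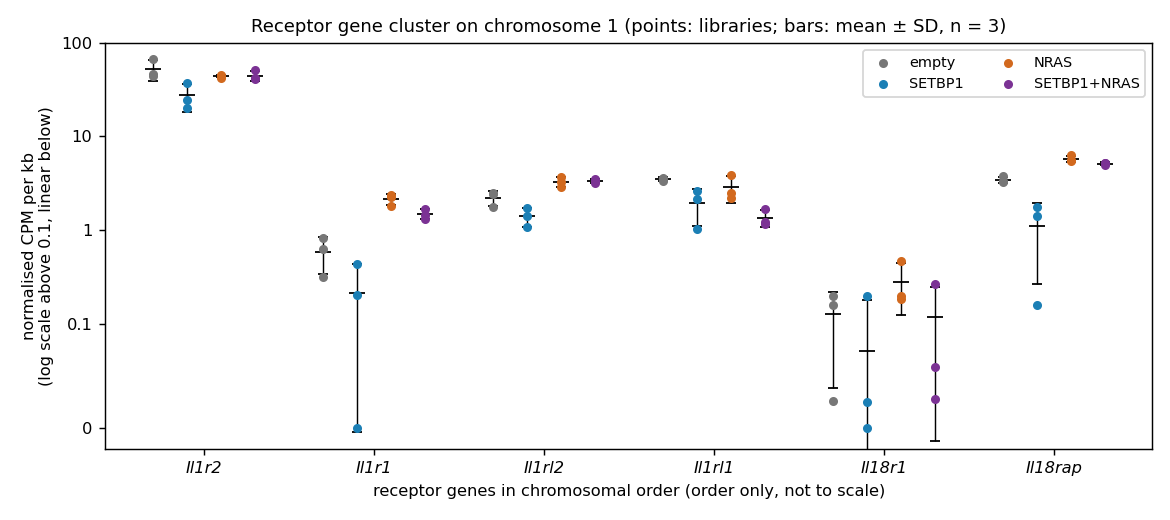
Normalised CPM per kb of exon for the 6 receptor genes of the chromosome 1 cluster, in chromosomal order on the x axis (order only) and on a log axis that is linear below 0.1, with libraries as points and mean and SD of 3 libraries as bars. Il1r2 is the most abundant in every group, and the SETBP1 group has the lowest mean for Il1r2, Il1r1, Il1rl2, Il18rap and Il18r1. Il18r1 has only 0 to 17 counts per library.

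In the chromosome 1 cluster, Il1rl2 (the IL-36 receptor, chr1:40324610-40367562) was lowest with SETBP1 and highest with mutant NRAS. It rose with NRAS by a log2 fold change of 0.55 (SE 0.18, edgeR adjusted p = 0.0328) and with both by 0.58 (SE 0.18, edgeR adjusted p = 0.0210), and fell with SETBP1 by 0.67 (SE 0.19, edgeR adjusted p = 0.0341). The SETBP1 call was lost in 8 of 18 alternatives, among them without SETBP1 replicate 3 (-0.51, edgeR adjusted p = 0.0627), without empty replicate 1 or 3, without NRAS replicate 2 and without SETBP1+NRAS replicate 1 or 3. The NRAS call was lost in 6, among them without empty replicate 1 or 2 and without NRAS replicate 2 or 3, and the call for both in 4, among them without empty replicate 2 and without SETBP1+NRAS replicate 2 or 3. Il18rap, the accessory chain of the IL-18 receptor (chr1:40515362-40551705), was at 22.3, 22.1 and 25.2 normalised CPM with empty vectors, 11.9, 9.54 and 1.06 with SETBP1, 37.9, 37.1 and 42.5 with NRAS, and 35.2, 35.3 and 33.2 with both. The SETBP1 libraries lay below the empty-vector libraries and the libraries with mutant NRAS above them, and SETBP1 replicate 3 was the lowest. Its change with SETBP1 was -1.63 (SE 0.42, edgeR adjusted p = 0.0230), and -1.11 (SE 0.14, edgeR adjusted p = 5.79e-05) without SETBP1 replicate 3. That call was lost without empty replicate 1 or 3 and in a fit of only the groups compared (edgeR adjusted p up to 0.164). Il18r1, the ligand-binding chain of that receptor (chr1:40465552-40500854), had 0 to 17 counts per library.

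Il18bp, the secreted antagonist of IL-18, fell where Il1rn rose in the groups with mutant NRAS: it fell with NRAS by 1.04 (SE 0.24, edgeR adjusted p = 0.00475) and with both by 1.10 (SE 0.25, edgeR adjusted p = 0.00270) on the log2 scale. With SETBP1 it was at 0.55 (SE 0.22, edgeR adjusted p = 0.106), and at 0.27 without SETBP1 replicate 3. Sigirr, an inhibitory receptor of the family, was at 25.4 to 48.9 normalised CPM, and its changes against empty were 0.36 (SE 0.19) with SETBP1 (0.11 without SETBP1 replicate 3), 0.08 (SE 0.19) with NRAS and 0.05 (SE 0.19) with both, none past the test. Il1f5, Il1f8, Il1f10, Il1rapl1 and Il1rapl2 had no count in any library.

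Genes of the signalling proteins below the receptors (MYD88, the IRAK kinases, TRAF6, the IKK complex) were called at shares near those of all genes with SETBP1 and with NRAS. Of 20 tested genes, 3 were called with SETBP1, all lower, where 14.9% of all genes were called (8.31% higher, 6.55% lower). With NRAS 2 rose and 5 fell, beside 32.5% (17.0% higher, 15.5% lower). With both 3 rose and 8 fell, beside 40.6% (20.8% higher, 19.8% lower). Without SETBP1 replicate 3, 1 was called with SETBP1, beside 15.3%. In SETBP1+NRAS against NRAS edgeR called 0 and DESeq2 2, with 2 at an unadjusted p under 0.05 in edgeR. The list's median log2 fold change was -0.19 with SETBP1 (-0.12 without SETBP1 replicate 3), -0.11 with NRAS, -0.14 with both and 0.01 in SETBP1+NRAS against NRAS. Myd88, the shared adaptor, was at -0.11 (SE 0.09) with both against empty and did not pass the test. The kinase gene Irak1 fell by 0.71 (SE 0.06, edgeR adjusted p = 9.56e-07) with both against empty. Ikbkb, an IKK subunit, fell by 0.55 (SE 0.09, edgeR adjusted p = 4.34e-04) with NRAS, while Chuk, its partner subunit, rose by 0.35 (SE 0.10, edgeR adjusted p = 0.0199). The Chuk call was lost with library-size scaling and without empty replicate 2 or 3 or NRAS replicate 3 (edgeR adjusted p up to 0.115). Irak3, an inhibitory member of the kinase family, fell by 0.40 (SE 0.11, edgeR adjusted p = 0.0266) with SETBP1, and so did the inhibitor Tollip by 0.45 (SE 0.14, edgeR adjusted p = 0.0485). They were at -0.45 (edgeR adjusted p = 0.00871) and -0.28 (edgeR adjusted p = 0.0661) without SETBP1 replicate 3. The Tollip call was lost in 15 of 18 alternatives, including without any one library other than SETBP1 replicate 1, and the Irak3 call in 4, including without empty replicate 1 or 3 or SETBP1 replicate 2 (edgeR adjusted p up to 0.128). Ikbkb, also called with SETBP1 (-0.29, SE 0.09, edgeR adjusted p = 0.0458), was lost in 14 of 18 alternatives. Among these was the fit without SETBP1 replicate 3 (-0.27, edgeR adjusted p = 0.0521).

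Of the inflammasome and ligand-processing genes, 21 were tested: 2 rose and 2 fell with SETBP1, 3 rose and 8 fell with NRAS, 4 rose and 10 fell with both, and 2 were called in SETBP1+NRAS against NRAS, both lower. Over all genes 14.9%, 32.5%, 40.6% and 1.91% were called in the same order. Without SETBP1 replicate 3, 2 rose and 3 fell with SETBP1, of 22 tested. The list's median was 0.06 (-0.01 without SETBP1 replicate 3), -0.21, -0.36 and -0.13. Casp1, which encodes the protease that matures IL-1 beta and IL-18, rose by 0.43 (SE 0.10, edgeR adjusted p = 0.0182) with SETBP1 (0.37, edgeR adjusted p = 0.0207 without SETBP1 replicate 3) and was at -0.13 (SE 0.11) with NRAS and -0.06 (SE 0.11) with both. The SETBP1 call of Casp1 was lost without empty replicate 1 or 3 and in a fit of only the groups compared (edgeR adjusted p up to 0.0996). The sensor Nlrp3 rose by 0.77 (SE 0.20, edgeR adjusted p = 0.00776) with NRAS. Capn2, a calpain subunit of the enzyme family that cuts the IL-1 alpha precursor, was at 47.1 to 62.2 normalised CPM with empty vectors and rose to between 188 and 233 with NRAS (log2 fold change 1.88, SE 0.19, edgeR adjusted p = 7.27e-06). The neutrophil serine proteases Elane and Prtn3, also early granule markers, fell with both against empty by 2.30 (SE 0.11, edgeR adjusted p = 2.16e-09) and 1.71 (SE 0.10, edgeR adjusted p = 2.40e-08). Gsdmd, the pore-forming gasdermin, fell with both by 0.56 (SE 0.07, edgeR adjusted p = 2.84e-05).

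Genes known to be induced by IL-1 through NF-kB, which other stimuli induce too, rose more often than they fell against empty. Of 29 tested, 13 rose and 2 fell with SETBP1, 15 rose and 4 fell with NRAS, and 17 rose and 3 fell with both; 2 rose and 2 fell in SETBP1+NRAS against NRAS. Over all genes 8.31% rose and 6.55% fell with SETBP1, 17.0% and 15.5% with NRAS, 20.8% and 19.8% with both, and 0.528% and 1.38% in SETBP1+NRAS against NRAS. In that last comparison Csf3 and Saa3 rose. The Csf3 call was lost without NRAS replicate 3 (edgeR adjusted p = 0.0633) and the Saa3 call in 9 of 18 alternatives (up to 0.198). Of those that fell, Vcam1 was lost in 5 of 18 alternatives and Lcn2 in 0. Without SETBP1 replicate 3, 11 rose and 2 fell with SETBP1 and the median was 0.39. The median was 0.56 (0.61 without Csf3, which had no count in either group), 0.46, 0.47 and 0.14. The direction depended on the gene and the mutant. Saa3, an acute-phase gene, was at 19.8 to 24.5 normalised CPM with empty vectors, 170 to 470 with SETBP1, 5.68 to 7.04 with NRAS and 14.3 to 27.7 with both. It thus rose with SETBP1 (log2 fold change 3.64, SE 0.35, edgeR adjusted p = 2.26e-04, and 3.00 without SETBP1 replicate 3) and fell with NRAS (-1.83, SE 0.42, edgeR adjusted p = 0.00403).

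The chemokine gene Ccl4 was at 10.7 to 14.6 normalised CPM with empty vectors, 32.7 to 87.6 with SETBP1, 698 to 743 with NRAS and 959 to 1278 with both. Ptgs2, the inducible cyclooxygenase, was at 0.254 to 0.945, 0.592 to 1.45, 22.3 to 33.6 and 21.6 to 36.5 in the same order. Both were high in the libraries with mutant NRAS, as was Il1rn. Csf3, the granulocyte colony-stimulating factor gene, had no count in the empty-vector and SETBP1 libraries and totals of 21 counts with NRAS and 263 with both. These totals are 7.45-fold and 95.2-fold the floor over the empty-vector group, with counting error left out. It passed the filter only through the groups with mutant NRAS and is 1 of the genes counted as higher there. The adhesion gene Vcam1 and the late neutrophil gene Lcn2 fell with both mutants against empty by 2.55 (SE 0.31, edgeR adjusted p = 1.90e-05) and 1.83 (SE 0.12, edgeR adjusted p = 4.31e-08).

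**Figure D5:**
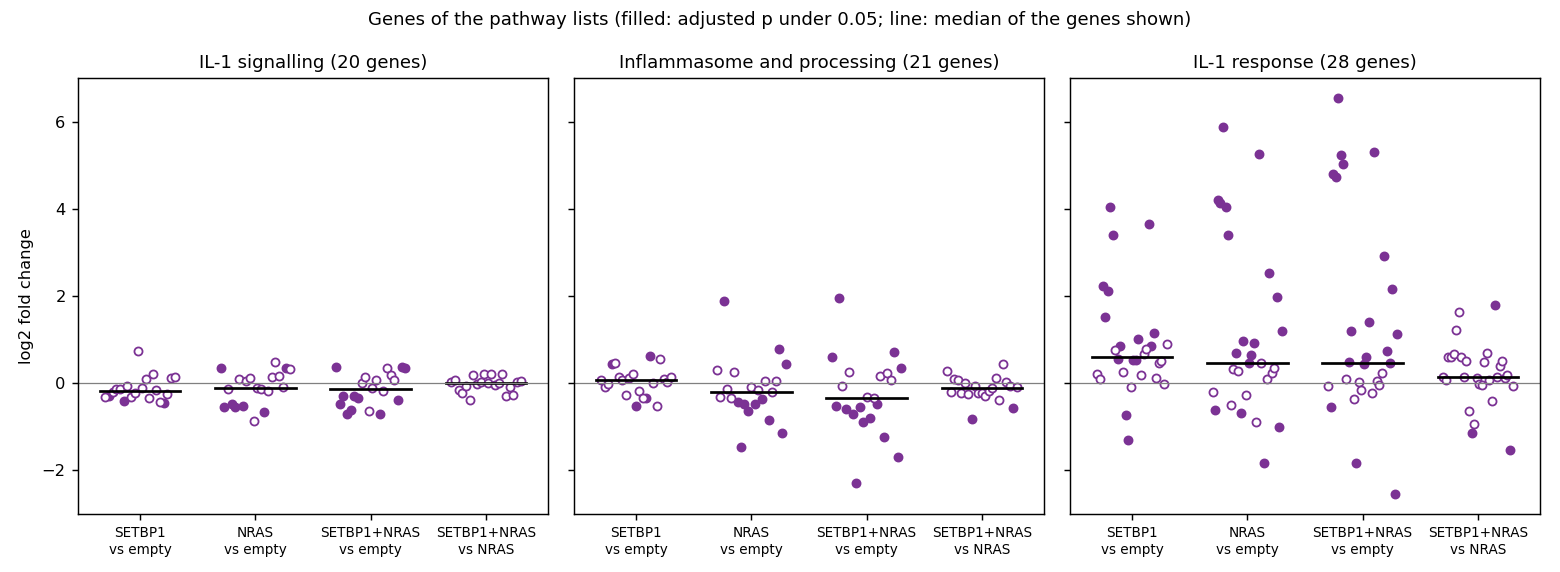
Log2 fold change of each tested gene (points) of the signalling, processing and response lists in 4 comparisons; filled points have an adjusted p under 0.05 in edgeR and lines are medians. Csf3 is not drawn. Response genes reach 6.54 (Ccl4, both mutants against empty); with both mutants against empty the signalling genes lie between -0.71 (Peli2) and 0.37 (Ube2n).

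Stromal markers were examined because Il33 and Il1r1 are known from stromal and endothelial cells. Col3a1, Cxcl12, Pdgfra and Dcn had no count in any library, and 4 of 12 markers were tested, of which 3 rose with NRAS and 2 with both against empty, beside 17.0% and 20.8% of all genes. The summed level was 111 to 126 normalised CPM with empty vectors, 84.5 to 98.2 with SETBP1, 197 to 296 with NRAS and 191 to 209 with both, most of it from Pecam1, which myeloid cells also express. The part of these markers in the Il33 and Il1r1 values was not tested.

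The genes whose log2 levels were most like those of a member over the 12 libraries, among 9065 searched, are given as a description; the libraries share 4 groups. For Il1rn, Pearson's r was 0.987 for Ppp2r1a, 0.987 for Eif2s1 and 0.986 for Ccl4. For Il1b it was 0.973 for Alg3, 0.944 for Zfp330 and 0.931 for Nfkb2, and for Il1a 0.954 for Rala, 0.938 for Atp13a2 and 0.937 for Bcl2a1d. Il1r1 was most like Azin1 (0.982), Il1rap like Pi4k2b (0.974), Il1rl1 like Hip1r (0.956), Il36g like Gsr (0.969), Il18 like Mta1 (0.938) and Il1r2 like Nipa2 (0.883). Between members, r was highest for Il1b with Il18 (0.893), and lowest for Il1a with Il1rl1 (-0.826).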

How the data were processed

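The deposited values are raw counts by gene symbol, in 1 table, for 12 libraries made with an ultra-low-input SMART-Seq kit. STAR, DESeq2 and mm10 are named in the submitters' processing notes; versions, the counting tool and the strand rule are not given in the sources used here. Counts were fitted with edgeR 4.0.16 (R 4.3.3): TMM scaling, filterByExpr (minimum count 10, minimum total 15), and a quasi-likelihood F test on all 12 libraries as 4 group means. Two-sided p-values were adjusted (Benjamini-Hochberg) over the 10993 tested genes in each of 7 comparisons, with a threshold of 0.05. Alternatives were DESeq2 1.42.0, other scalings, no filter, only the groups compared, a replicate block and leaving out each library. Exon lengths were unions of GENCODE vM21 exons, and promoters were RefSeq's, matched for all 10 members. Scripts were tested on simulated data. Genes of the pathway lists were named by a rule: up to 3 in each direction with the largest called change, if the group with most reads averaged 50 counts or more. Myd88, Sigirr, Gsdmd and the values of Casp1 with mutant NRAS were added after their values had been seen. The members and all lists were chosen with earlier results of these data known. Replicate numbers were not used to pair the libraries in the main fit.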

Additional observations from a re-analysis of the deposited data

How the results depend on the processing

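Of 70 member-by-comparison results under up to 18 alternatives (1237 values), 1150 kept their direction and their side of the threshold, 41 lost a call, 24 gained one and 22 changed sign, none of them a called change. For SETBP1 against empty, 4 members were called; DESeq2 called 7 and a fit of only the groups compared 2, and leaving out single libraries gave 2 to 7. For SETBP1+NRAS against NRAS, 2 were called (1 to 3 with a library left out), and for the interaction 0 (1 with no filter, 0 to 2 with a library left out). Over all genes, SETBP1 against empty gave 1633 calls, 110 in a fit of only the groups compared and 390 to 3191 with a library left out. SETBP1+NRAS against NRAS gave 210, 379 with DESeq2, 883 with only the groups compared and 93 to 836 with a library left out. SETBP1+NRAS against SETBP1 gave 4661 (3083 with only the groups compared), NRAS against SETBP1 4495 (2848), and the interaction 5 (93 with DESeq2, 14 with no filter, 1 to 110 with a library left out). The cause of these shifts was not tested.

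Changes that were not called and changed sign when a library was left out were, on the log2 scale, Il18 (-0.15 to 0.25), Il1r2 (-0.089 to 0.077), Il1rn (-0.033 to 0.35) and Il33 (-0.87 to 0.014) for SETBP1+NRAS against NRAS, Il1a (-0.12 to 0.52) for SETBP1+NRAS against SETBP1, Il1b (-0.57 to 0.20) and Il36g (-0.30 to 0.060) for NRAS against SETBP1, and Il1a (-0.42 to 0.21), Il1rap (-0.18 to 0.055) and Il1rl1 (-0.53 to 0.065) for the interaction. With library-size scaling, which moved the median of all genes by -0.10 (NRAS) and -0.13 (both) against empty, Il1r2 was at -0.0097 and Il18 at -0.025 for SETBP1+NRAS against NRAS. Il33 had no value for SETBP1 against empty without SETBP1 replicate 2.

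Same-numbered libraries deviated from their group means with correlations of -0.13 to 0.12 over 18 pairs, 1 above 0.1. Other pairs between groups gave -0.14 to 0.16. The numbers thus showed no sign of pairing, though these values cannot tell whether same-numbered libraries share a mouse or transduction. With the replicate number as a block, members called were 5, 7, 8, 2, 6, 6 and 0 in the order SETBP1, NRAS and both against empty, SETBP1+NRAS against NRAS and against SETBP1, NRAS against SETBP1, and interaction. All genes called with the replicate block were 1177, 3339, 4276, 164, 4404, 4275 and 6. Depth limits Il33, Il18 and Il1r1 most, with 0 to 120 counts of Il33 and Il1r1 per library.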
